A study of Mus musculus with 32 samples.

Results

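Genes of the oxygen-sensing pathway built on the hypoxia-inducible factors (HIFs) were followed in a mouse model of polycystic kidney disease (PKD). The 9 genes described here were chosen by name as rows of the deposited count table, and they are 9 of its 53700 genes. They are the alpha subunits *Hif1a* (HIF-1alpha) and *Epas1* (HIF-2alpha), the prolyl hydroxylases *Egln1* (PHD2) and *Egln3* (PHD3), and the targets *Vegfa*, *Adm*, *Bnip3*, *Ndrg1* and *Ankrd37*. Each was measured in 32 whole kidneys of male C57BL/6 mice, 8 Wildtype, 12 PKD and 12 PKD + Salsalate. All 3 groups are of the iKspCre-Pkd1del line, which carries LoxP sites in *Pkd1* and a tamoxifen-inducible Cre driven by the Ksp-cadherin promoter of the tubule epithelium. The wildtype kidneys came from mice of this line that were not given tamoxifen, collected at 109 days of age. The PKD mice were given tamoxifen at 150 mg/kg and collected at 95 days, and the PKD + Salsalate mice were in addition fed salsalate, a prodrug of salicylate, at 2.5 g per kg of food for 2 weeks. Deletion, tamoxifen and age therefore cannot be told apart in any comparison with wildtype. Per the paper, the mice of both PKD groups were chosen for a similarly mild cystic phenotype, by kidney weight over body weight. The deletion is aimed at tubule cells and not at vessels or interstitium. In whole kidneys, fewer cells of a type and less RNA per cell cannot be told apart either.

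Cells sense oxygen through the HIFs. A HIF is a pair of a regulated alpha subunit and a constant beta subunit (ARNT), and it binds a short DNA core beside the genes it switches on. When oxygen is ample, the prolyl hydroxylases of the EGLN family mark the alpha subunit, the VHL ubiquitin ligase recognises the mark and the subunit is destroyed. The factors are therefore regulated mainly as proteins, which RNA counts do not measure, and their activity is usually read from target transcripts. In the kidney, HIF-2alpha in interstitial and endothelial cells is known for its control of erythropoietin, HIF-1alpha works in the tubular epithelium, and cyst growth is known to press on the vessels around the cysts.

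Libraries held 11193136 to 109807664 counts on genes (median 17242801), and PKD + Salsalate replicate 3 was the deepest. *Pkd1* was counted over its whole length, so the loss of the floxed exons cannot be read from it, and its CPM (counts scaled to the effective size of each library) was 53.1 to 86.4 in wildtype and 70.7 to 113 in PKD. PKD replicate 10 stood apart through liver transcripts, with a summed CPM of 4363 against a PKD median of 153. The wildtype libraries stood apart from each other. For 5 of them the library name ends in R, and for 3 it does not, and 6715 of 13961 genes tested (48.1%) differed between these sets at an adjusted p-value under 0.05. The labels do not say what the R stands for. Of the counted alignments 73.6% to 76.4% lay on genes in the R-named kidneys, against 80.9% to 83.1% in the 3 others. In PKD kidneys this share was 74.1% to 82.9%, and in PKD + Salsalate kidneys 78.6% to 82.7%. The R-named libraries held 11278382 to 16473782 counts on genes and the others 17011675 to 28290874. The part of these differences in the results was not tested. Every comparison with wildtype of a member that was tested is therefore given against all 8 wildtype kidneys, against the 5 R-named ones and against the 3 others. Some tubule and vessel markers moved with the sets, not all in 1 direction. Of 8 proximal tubule markers 6 were lower and 1 higher in the R-named kidneys (summed CPM 7307 to 9873 against 12196 to 14125), 3 of 5 thick ascending limb markers were lower (2283 to 3049 against 4023 to 4539), and 5 of 8 endothelial markers were higher (455 to 589 against 395 to 416). Of 3 distal convoluted tubule markers 2 were higher and 0 lower (994 to 1274 against 1002 to 1033), and of 7 collecting duct markers 1 was higher and 3 lower. The part of these markers in the results was not tested.

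The DNA core that HIFs bind reads ACGTG or GCGTG, which on the other strand is CACGT or CACGC. In the 250 bases before the start of the Ensembl canonical transcript (build GRCm39), 8 of the 9 genes held at least 1 match on either strand, all but *Vegfa*, against 41.3% of 21757 protein-coding promoters of the same length. Overlapping matches were counted as 1. ACGTG was present in 17% and GCGTG in 31.2% of these promoters. *Bnip3* held 4 matches, *Ndrg1* 3, and *Adm* and *Ankrd37* 2 each, and 15% of all promoters held 2 or more. The promoters of these 4 targets and of *Egln3* are shown because these targets hold the most matches and *Egln3*, a hydroxylase that is itself a target, holds a single distant one. Matches are in capitals. They are *Bnip3* (chr7:138511254-138511503, minus strand), *Ndrg1* (chr15:66841803-66842052, minus strand), *Adm* (chr7:110226608-110226857, plus strand), *Ankrd37* (chr8:46452906-46453155, minus strand) and *Egln3* (chr12:54250674-54250923, minus strand), each written 5′ to 3′ on the strand of the gene and ending at the base before the transcript start.
Bnip3: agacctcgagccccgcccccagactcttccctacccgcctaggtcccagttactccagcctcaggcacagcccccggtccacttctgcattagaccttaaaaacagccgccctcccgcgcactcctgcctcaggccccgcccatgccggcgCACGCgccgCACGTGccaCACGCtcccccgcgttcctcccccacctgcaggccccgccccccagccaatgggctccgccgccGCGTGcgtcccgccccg
Ndrg1: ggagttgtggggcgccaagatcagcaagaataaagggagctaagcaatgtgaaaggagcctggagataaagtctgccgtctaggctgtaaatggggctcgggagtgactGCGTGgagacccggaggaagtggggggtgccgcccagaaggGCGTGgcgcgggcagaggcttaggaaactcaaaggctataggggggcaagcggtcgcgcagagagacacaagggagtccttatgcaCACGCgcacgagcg
Adm: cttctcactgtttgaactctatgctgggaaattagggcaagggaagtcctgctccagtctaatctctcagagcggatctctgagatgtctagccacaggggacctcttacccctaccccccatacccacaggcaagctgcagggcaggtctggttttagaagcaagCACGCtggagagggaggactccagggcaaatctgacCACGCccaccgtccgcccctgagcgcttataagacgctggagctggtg
Ankrd37: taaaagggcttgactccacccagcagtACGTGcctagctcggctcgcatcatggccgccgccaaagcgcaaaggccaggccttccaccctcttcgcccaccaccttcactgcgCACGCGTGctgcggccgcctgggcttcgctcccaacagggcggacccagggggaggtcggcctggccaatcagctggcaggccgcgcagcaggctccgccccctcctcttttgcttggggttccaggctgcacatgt
Egln3: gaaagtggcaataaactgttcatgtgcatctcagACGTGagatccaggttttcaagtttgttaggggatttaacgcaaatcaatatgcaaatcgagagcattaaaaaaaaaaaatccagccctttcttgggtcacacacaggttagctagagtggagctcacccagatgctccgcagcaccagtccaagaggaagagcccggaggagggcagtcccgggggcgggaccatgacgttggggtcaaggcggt
The matches of *Bnip3* lay between 99 and 17 bases before the start, and 1 of them is a palindrome that holds ACGTG on both strands. The match of *Egln3* lay 216 bases before the start. The members not shown are *Hif1a* (chr12:73948149-73996321), *Epas1* (chr17:87061087-87140838), *Egln1* (chr8:125635308-125676865) and *Vegfa* (chr17:46327919-46343309), given here by the span of the gene. No member shares exon bases with another gene on its own strand. A match is only a run of letters, and binding was not measured.

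Per length of transcript, the 9 genes spanned a wide range of levels. In wildtype kidneys the RPKM (CPM per kilobase of exon) was 128 ± 34.3 for *Ndrg1*, 48.0 ± 13.7 for *Vegfa*, 41.3 ± 5.61 for *Bnip3* and 33.9 ± 8.41 for *Epas1* (mean ± SD, n = 8). It was 8.69 ± 1.29 for *Egln1*, 5.78 ± 0.963 for *Hif1a*, 5.74 ± 1.42 for *Egln3*, 2.49 ± 0.942 for *Adm* and 0.614 ± 0.180 for *Ankrd37*. Neighbours in this order overlapped between kidneys for *Vegfa*, *Bnip3* and *Epas1*, and for *Hif1a* and *Egln3*, and the other neighbours did not. *Ndrg1* stood above 98.3% of 13940 tested genes of known length by this measure, and *Adm* above 37.4%. In PKD kidneys the order of the means was the same, and there *Vegfa* (47.5 to 73.3), *Bnip3* (30.7 to 43.0) and *Epas1* (21.9 to 29.3) no longer overlapped in RPKM. In PKD + Salsalate kidneys *Egln3* (7.07 ± 0.920) lay above *Hif1a* (5.97 ± 0.663), with overlapping ranges. *Ankrd37* was under the filter on low values (log2 CPM over 1 in at least 25% of kidneys), so 8 of the 9 members were tested.

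The first comparison asks how the kidneys differ once cysts have formed after *Pkd1* deletion. In PKD against all 8 wildtype kidneys, *Vegfa*, *Adm* and *Ndrg1* were higher and *Epas1* was lower, and the other 4 tested members did not pass the test (edgeR's quasi-likelihood test, Benjamini-Hochberg adjusted over all genes tested). These are 3 higher and 1 lower of 8 members, where 49.1% of all genes tested passed, 24.1% higher and 25.0% lower. Against the R-named wildtype kidneys the same 4 passed in the same directions together with *Egln3*, 5 of 8 where 60.3% of all genes passed. Against the 3 other wildtype kidneys none of these 5 passed and *Hif1a* and *Egln1* did, 2 of 8 where 39.4% passed. No member was called in the same direction against both sets, while 19.2% of all genes tested were. Cell markers moved with PKD too. All 3 distal convoluted tubule markers were lower than in all 8 wildtype kidneys (summed CPM 431 to 648 against 994 to 1274 in wildtype), as were all 5 podocyte markers (213 to 245 against 241 to 370), while of 8 proximal tubule markers 2 were higher and 2 lower, and of 8 endothelial markers 2 were higher and 2 lower. Lower against both wildtype sets were 2 of the 3 distal convoluted tubule markers and 1 of the 5 podocyte markers, where 7.79% of all genes were. All 5 red cell transcripts, of globins and the heme enzyme *Alas2*, were lower against both wildtype sets in PKD (summed CPM 44.9 to 164 against 245 to 806 in wildtype) and in PKD + Salsalate (70.5 to 311). Their part in the members' values was not tested.

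**Figure D1:**
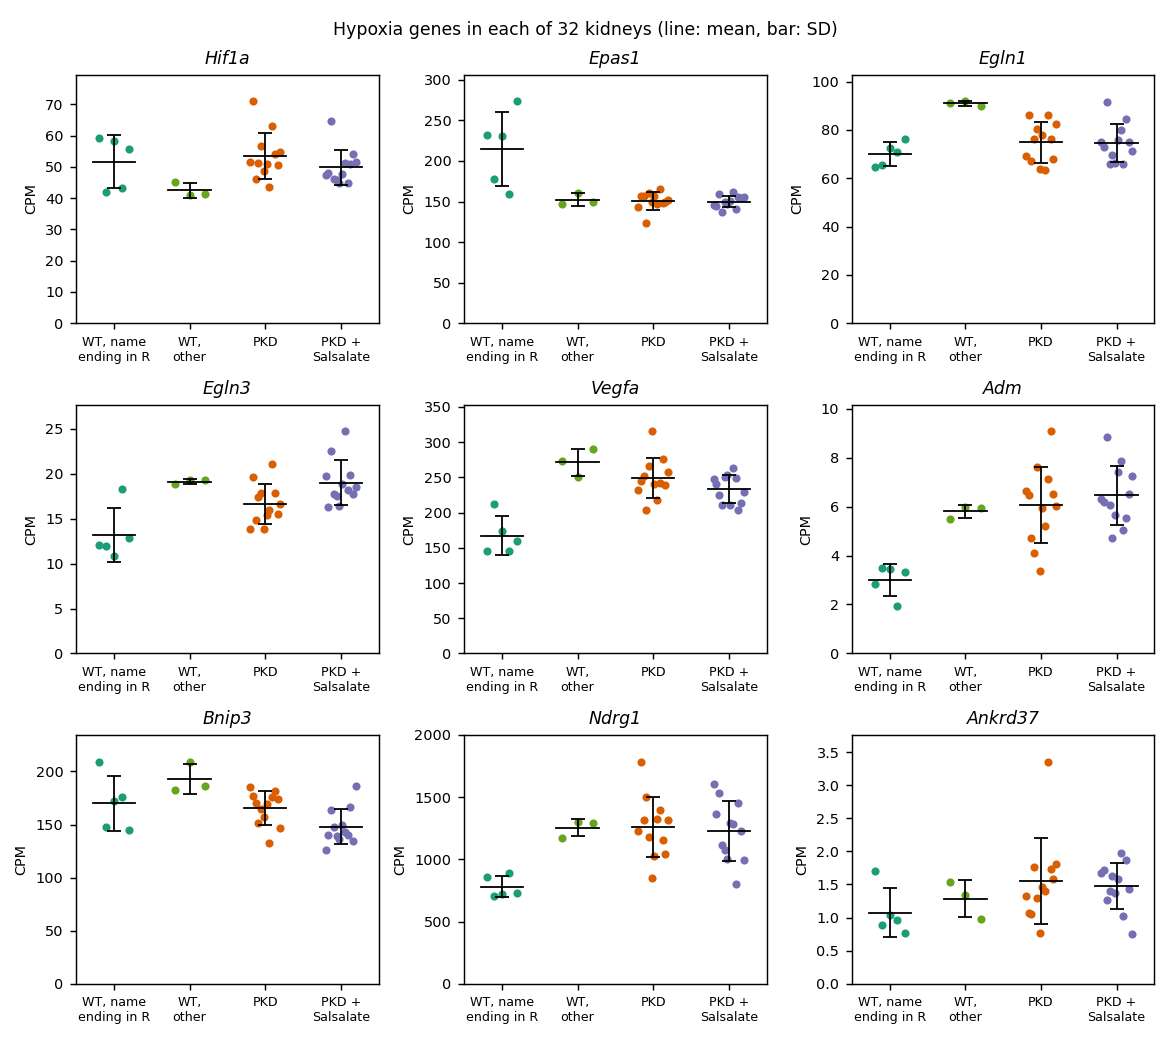
CPM (y axis, linear, from 0) of each of the 9 genes in every kidney, with the wildtype kidneys split by whether the library name ends in R; each point is 1 kidney, the line is the mean and the bar the SD. For *Vegfa*, *Adm* and *Ndrg1* the R-named wildtype kidneys have the lowest mean and the 3 other wildtype kidneys lie inside the PKD range. For *Vegfa* these others reach 290 CPM, above the highest PKD + Salsalate kidney at 263. For *Epas1* 4 of the 5 R-named kidneys lie above every other kidney.

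*Epas1* encodes HIF-2alpha, the alpha subunit of endothelial and interstitial cells. Its CPM was 232, 178, 230, 160 and 274 in R-named wildtype replicates 1 to 5 and 146, 161 and 150 in the other 3. It was 124 to 166 in PKD (median 151) and 138 to 161 in PKD + Salsalate (median 150). No PKD or PKD + Salsalate kidney reached the wildtype median of 169, and the ranges of the groups overlapped. *Epas1* changed by a log2 fold change of -0.34 ± 0.084 in PKD over wildtype (SE, adjusted p = 0.00107, edgeR). Its value was -0.51 against the R-named kidneys, with an adjusted p of 6.55e-07, and -0.02 against the 3 others, with an adjusted p of 0.905. The R-named kidneys also exceeded the other wildtype kidneys themselves, by 0.49 on the log2 scale (adjusted p = 0.000305), where 24.4% of all genes tested were higher.

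*Hif1a*, the alpha subunit found in most cells, did not pass against all wildtype kidneys. Its CPM was 40.9 to 59.2 in wildtype (median 44.2), 43.5 to 71.0 in PKD (median 51.4) and 44.7 to 64.6 in PKD + Salsalate (median 47.9). Among the R-named kidneys replicates 1, 3 and 5 had 59.2, 58.4 and 55.7, while replicates 2 and 4 had 42.0 and 43.2, next to the 40.9 to 45.3 of the others. For *Hif1a* the log2 fold change of PKD was 0.15 ± 0.086 against all wildtype kidneys (adjusted p = 0.139, edgeR), 0.05 for the R-named ones (adjusted p = 0.636) and 0.33 for the 3 others (adjusted p = 0.0218).

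The prolyl hydroxylases *Egln1* and *Egln3*, themselves known HIF targets, showed no difference that passed against all wildtype kidneys. *Egln1*, the main oxygen sensor in most cells, had a CPM of 64.8 to 76.4 in the R-named wildtype kidneys and 89.9 to 91.9 in the others, with no overlap. PKD kidneys spanned 63.4 to 86.3 (median 76.2), and PKD + Salsalate kidneys reached 91.4 (median 74.0). The PKD kidneys covered the R-named range, and all 12 lay below the 3 other wildtype kidneys. How many of all genes tested separate in these ways was not counted. For *Egln1* the log2 fold change of PKD was -0.06 ± 0.077 against all wildtype kidneys (adjusted p = 0.549, edgeR), 0.10 against the R-named ones (adjusted p = 0.275) and -0.28 for the 3 others (adjusted p = 0.0126). *Egln3*, which is strongly inducible by hypoxia, had a CPM of 10.9 to 18.4 in the R-named kidneys, where replicate 4 was the highest. It was 18.9 to 19.3 in the others, and 13.8 to 21.1 in PKD (median 16.3). For *Egln3* the log2 fold change of PKD was 0.10 ± 0.11 against all wildtype kidneys (adjusted p = 0.435, edgeR), 0.34 for the R-named ones (adjusted p = 0.00797) and -0.20 for the 3 others (adjusted p = 0.2).

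*Vegfa*, the ligand of endothelial VEGF receptors, had a CPM of 145, 213, 174, 145 and 160 in R-named wildtype replicates 1 to 5 and of 273, 251 and 290 in the others. PKD kidneys had 204 to 315 (median 243). PKD and the R-named kidneys overlapped only through R-named replicate 2, and the 3 others lay inside the PKD range. For *Vegfa* the log2 fold change of PKD was 0.27 ± 0.11 against all wildtype kidneys (adjusted p = 0.0341, edgeR), 0.57 for the R-named ones (adjusted p = 9.71e-07) and -0.12 for the 3 others (adjusted p = 0.331). The call against all wildtype kidneys was lost when any 1 of 8 kidneys was left out. These were replicates 1, 3, 4 and 5 of wildtype, 6 and 10 of PKD, and 4 and 11 of PKD + Salsalate. The adjusted p then reached up to 0.0999 (log2 fold change 0.21 at the lowest).

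*Adm*, which encodes the vasodilator peptide adrenomedullin, gave the steepest of the members' changes against all wildtype kidneys. Its CPM was 1.93 to 3.49 in the R-named wildtype kidneys, 5.49 to 5.97 in the others and 3.38 to 9.07 in PKD, with a PKD median of 6.25. Of the 12 PKD kidneys 7 lay above the highest wildtype kidney. The highest value, 9.07, came from PKD replicate 10. *Adm* had a log2 fold change of 0.56 ± 0.17 over all wildtype kidneys (adjusted p = 0.00843, edgeR), 1.02 over the R-named ones (adjusted p = 1.33e-05) and 0.08 over the 3 others (adjusted p = 0.776). The call against all wildtype kidneys held with any 1 kidney left out, PKD replicate 10 included.

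*Ndrg1*, a cytoplasmic stress-response protein and the most abundant member, followed the same pattern. Its CPM was 706 to 892 in the R-named wildtype kidneys, 1175 to 1297 in the others and 847 to 1786 in PKD (median 1273). The R-named kidneys overlapped PKD through PKD replicate 6, the lowest of that group. *Ndrg1* had a log2 fold change of 0.40 ± 0.14 over all wildtype kidneys (adjusted p = 0.0171, edgeR), 0.69 over the R-named ones (adjusted p = 5.6e-05) and 0.01 over the 3 others (adjusted p = 0.975).

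*Bnip3* encodes an outer mitochondrial membrane receptor for mitophagy. Its CPM was 145 to 209 in the R-named wildtype kidneys, 183 to 209 in the others and 133 to 186 in PKD (median 170). *Bnip3* had a log2 fold change of -0.11 ± 0.075 over all wildtype kidneys (adjusted p = 0.231, edgeR), -0.04 over the R-named ones (adjusted p = 0.722) and -0.22 over the 3 others (adjusted p = 0.0776). *Ankrd37*, a small ankyrin-repeat protein gene, was near 1 CPM in most kidneys. It was at 0.760 to 1.70 in the R-named wildtype kidneys, 0.980 to 1.54 in the others, 0.768 to 3.36 in PKD and 0.754 to 1.97 in PKD + Salsalate. In a fit of every gene with at least 1 count its log2 fold change of PKD over all wildtype kidneys was 0.45 ± 0.21 (adjusted p = 0.131, edgeR), and the sets were not fitted apart. Of its 1874 exon bases, 1525 are shared with genes on the other strand, and the reads were counted by strand.

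**Figure D2:**
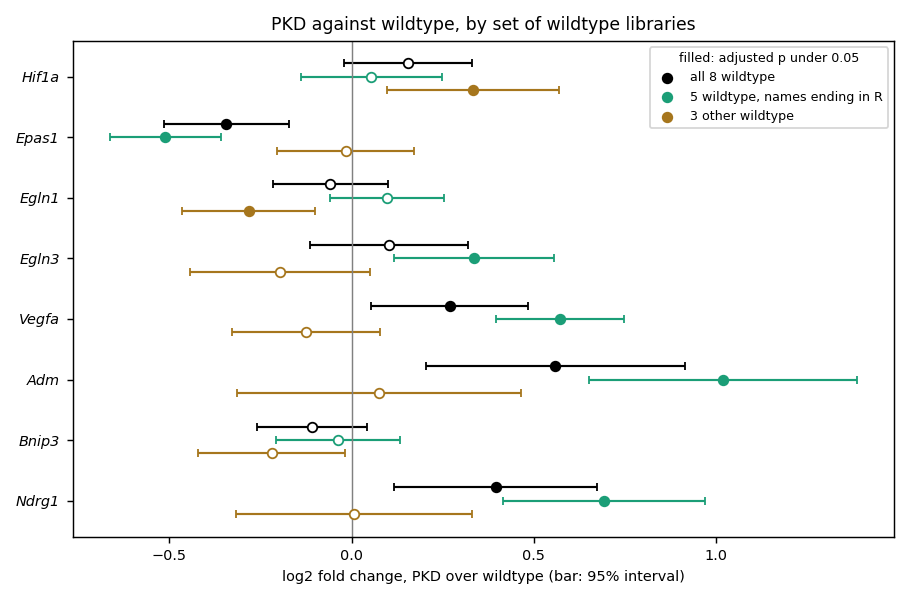
Log2 fold change of PKD over wildtype (x axis) for the 8 members tested, against all 8 wildtype kidneys, the 5 R-named ones and the 3 others; bars are 95% intervals and filled points have an adjusted p under 0.05. For *Vegfa*, *Adm* and *Ndrg1* the R-named estimates (0.57, 1.02 and 0.69) lie right of zero, and those against the others (-0.12, 0.08 and 0.01) have intervals that include it.

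The sets of wildtype kidneys were also compared with each other. Of the 8 members 6 passed, 1 higher and 5 lower in the R-named kidneys, where 24.4% of all genes tested were higher and 23.7% lower. *Epas1* was the member that was higher. The lower ones were *Adm* at -0.94 ± 0.23, *Vegfa* at -0.70 ± 0.11, *Ndrg1* at -0.68 ± 0.18, *Egln3* at -0.53 ± 0.14 and *Egln1* at -0.38 ± 0.10 on the log2 scale (adjusted p between 7.9e-06 and 0.00289, edgeR). The values for *Hif1a* (0.28, adjusted p = 0.0757) and *Bnip3* (-0.18, adjusted p = 0.186) did not pass. Of 33 other HIF targets tested 9 were lower and 6 higher, and of 20 glycolytic targets 6 were lower and 1 higher, neither list with more calls than the 48.1% of all genes. Lower in the R-named kidneys were the carbonic anhydrases *Car9* (-1.0, adjusted p = 6.21e-06) and *Car12* (-0.90, adjusted p = 2.61e-07), the glucose transporter *Slc2a1* (-0.78, adjusted p = 1.01e-05) and *Pgk1*, a glycolytic enzyme (-0.61, adjusted p = 2.17e-07), among others. Higher were, among others, the copper oxidase *Cp*, ceruloplasmin (0.64, adjusted p = 0.0175), the mitophagy receptor *Bnip3l* (0.34, adjusted p = 0.00108) and *Pkm*, pyruvate kinase (0.33, adjusted p = 0.00232). *Car9* and *Car12*, chosen after their values were seen, passed in opposite directions in PKD, at 0.49 and 0.34 over the R-named kidneys and -0.51 and -0.55 over the 3 others.

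The comparison of PKD + Salsalate with PKD asks what 2 weeks of salsalate changed in cystic kidneys. None of the 8 members passed, where 0.580% of all genes tested (81) did. At an unadjusted p under 0.05 there was 1 of 8 members, *Bnip3*, where 10.3% of all genes tested were, and 0 members passed with DESeq2 or limma-voom. Both groups share age and tamoxifen. Their mice were chosen for a similarly mild phenotype, so these values hold for kidneys matched in severity. Wildtype enters these tests through the filter, the scaling factors and the common estimate of the spread.

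For *Bnip3* the CPM was 126 to 186 in PKD + Salsalate (median 142) against 133 to 186 in PKD (median 170). It was below the PKD median in 11 of 12 PKD + Salsalate kidneys, the exception being replicate 12. The log2 fold change was -0.16 ± 0.067 (95% interval -0.30 to -0.03, p = 0.0203, adjusted p = 0.331, edgeR). For *Egln3* the CPM was 16.3 to 24.7 (median 18.4) against 13.8 to 21.1 in PKD (median 16.3), and 11 of 12 PKD + Salsalate kidneys were above the PKD median. Its log2 fold change was 0.19 ± 0.093 (95% interval -0.00053 to 0.38, adjusted p = 0.488).

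The intervals bound how large a salsalate effect these kidneys leave room for. They ran from -0.16 to 0.15 on the log2 scale for *Epas1*, from -0.15 to 0.13 for *Egln1* and from -0.26 to 0.05 for *Hif1a*. For the targets they ran from -0.29 to 0.09 for *Vegfa*, from -0.28 to 0.21 for *Ndrg1* and from -0.22 to 0.39 for *Adm*, the least precise member. PKD + Salsalate replicate 3, the most deeply sequenced library, was the highest of its group for *Hif1a* (64.6), *Egln1* (91.4) and *Adm* (8.85) in CPM. Leaving out any 1 kidney gave 0 members called.

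**Figure D3:**
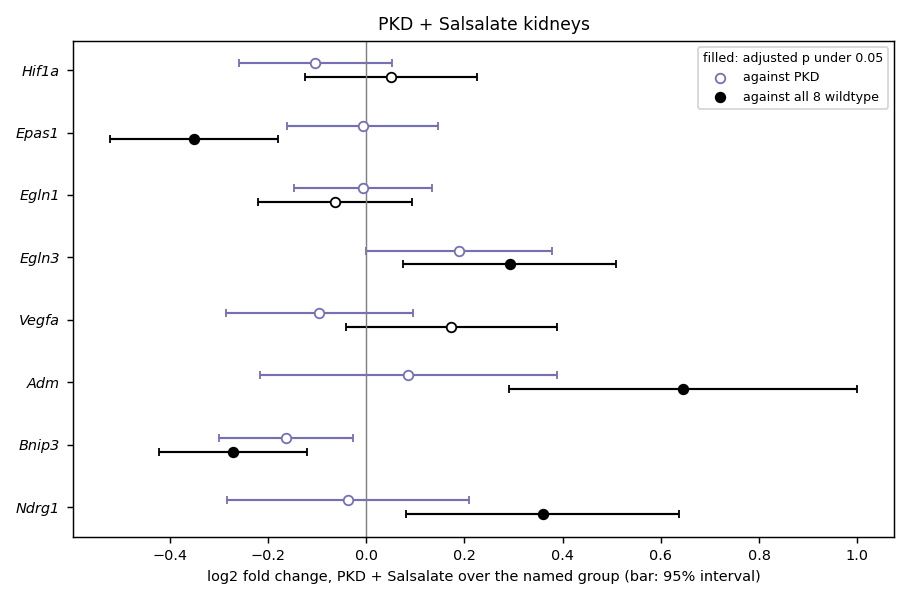
Log2 fold change of PKD + Salsalate (x axis) over PKD and over all 8 wildtype kidneys for the 8 members tested; bars are 95% intervals and filled points have an adjusted p under 0.05. No point against PKD is filled, and *Bnip3* lies left of zero in both comparisons (-0.16 and -0.27).

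The comparison of PKD + Salsalate with wildtype asks what remained different under treatment, and it shares its wildtype kidneys with the first. Here 5 of 8 members passed, 3 higher and 2 lower, where 44.9% of all genes passed, 21.8% higher and 23.2% lower. Higher were *Adm* (0.65 ± 0.17, adjusted p = 0.00311), *Ndrg1* (0.36 ± 0.14, adjusted p = 0.0319) and *Egln3* (0.29 ± 0.11, adjusted p = 0.0248), and lower were *Epas1* (-0.35 ± 0.084, adjusted p = 0.00102) and *Bnip3* (-0.27 ± 0.074, adjusted p = 0.00351). Against the R-named wildtype kidneys 6 passed, where 58.6% of all genes did, and against the others 2, *Egln1* (-0.29, adjusted p = 0.0129) and *Bnip3*, where 33.5% did.

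The values against each wildtype set lay apart for most members, as they did for PKD. In PKD + Salsalate *Adm* was at 1.10 on the log2 scale against the R-named kidneys (adjusted p = 4.36e-06, edgeR) and at 0.16 against the 3 others (adjusted p = 0.551). *Ndrg1* was at 0.66 (adjusted p = 0.000115) and -0.03 (adjusted p = 0.906), and *Egln3* at 0.53 (adjusted p = 0.000109) and -0.01 (adjusted p = 0.968). *Vegfa*, which did not pass against all wildtype kidneys (0.17, adjusted p = 0.18), passed against the R-named ones (0.48, adjusted p = 1.69e-05) and was at -0.22 against the others (adjusted p = 0.0859). For *Epas1* the values were -0.52 (adjusted p = 5.79e-07) and -0.02 (adjusted p = 0.871). *Egln1* was at -0.06 against all wildtype kidneys (adjusted p = 0.521) and 0.09 against the R-named ones (adjusted p = 0.306). *Hif1a* passed in none of these comparisons, at 0.05 against all wildtype kidneys, -0.05 against the R-named ones and 0.23 against the others (adjusted p = 0.658, 0.68 and 0.124).

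*Bnip3* was the 1 member called in the same direction against both sets, at -0.20 against the R-named kidneys (adjusted p = 0.0384) and -0.38 for the 3 others (adjusted p = 0.00292, edgeR), and 15.8% of all genes tested were so called, 9.77% higher and 5.99% lower. Of the 12 PKD + Salsalate kidneys 7 lay below the lowest wildtype kidney, at 145 CPM, and the ranges overlapped. With any 1 kidney left out the adjusted p stayed between 0.000825 and 0.0122. The calls of *Egln3* and *Ndrg1* did not last in this way. The *Egln3* call was lost when wildtype replicate 1, 2, 3 or 5 was left out (adjusted p up to 0.0699). The *Ndrg1* call was lost when any 1 of wildtype replicates 1 to 5, or replicate 1, 3 or 10 of PKD + Salsalate, was left out (adjusted p up to 0.0786).

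Some members varied together between kidneys of a group. Over the 32 kidneys, with the mean of each group and of each wildtype set removed, Pearson's r of log2 CPM was 0.73 between *Hif1a* and *Egln1*, 0.64 between *Egln1* and *Egln3*, 0.59 between *Hif1a* and *Epas1*, 0.59 between *Egln1* and *Ndrg1* and 0.52 between *Egln3* and *Ndrg1*. *Hif1a* and *Adm* also had an r of 0.52, and *Vegfa* and *Ndrg1* had an r of -0.45. Kidneys differ in depth and may differ in library preparation and cell makeup, so these values are a description. The genes most like a member by this measure were *Cpne3*, *Bmpr2* and *Mib1* for *Hif1a* (r up to 0.92), *Ets1*, *Ccdc8* and *Dennd5a* for *Epas1* (up to 0.83), *Bloc1s6*, *Nus1* and *Gnpda1* for *Egln1* (up to 0.88), and *Sel1l3*, *Pter* and *Ankrd33b* for *Egln3* (up to 0.82). They were *Hps5*, *Tent4b* and *Chrna4* for *Vegfa* (up to 0.82), *Bbs10*, *Zc3h11a* and *Itgb8* for *Adm* (up to 0.77), *Klhdc1*, *Etfrf1* and *Esrrg* for *Bnip3* (up to 0.77), and *Tgoln1*, *Ptprk* and *Tmem127* for *Ndrg1* (up to 0.80). No member was among the nearest genes of another.

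Around the members, the wider oxygen-sensing machinery was also measured. Of 17 genes of HIF subunits and their regulators, 2 were higher and 5 lower in PKD than in all wildtype kidneys, with a median log2 fold change of -0.06 against -0.01 over all genes tested, of which 24.1% were higher and 25.0% lower. *Egln2* and *Hif1an* passed as lower against both wildtype sets, 2 of 17 where 7.79% of all genes did. *Egln2*, the prolyl hydroxylase PHD1, had a CPM of 134 to 184 in wildtype and 62.4 to 115 in PKD. Its log2 fold change was -0.90 ± 0.11 (adjusted p = 5.89e-08, edgeR), with -0.996 against the R-named kidneys and -0.74 against the others. *Hif1an* encodes FIH, the asparaginyl hydroxylase that blocks coactivator binding to the alpha subunit, and had a log2 fold change of -0.30 (adjusted p = 0.00163), with -0.27 against the R-named kidneys and -0.35 against the others. *Egln2* passed as lower in PKD + Salsalate against wildtype too, at -0.65 (adjusted p = 1.96e-05), with a median CPM of 100 against 79.4 in PKD. The difference between the PKD groups, 0.25 on the log2 scale, did not pass (adjusted p = 0.319).

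The other machinery genes that passed in PKD depended on the wildtype set. The elongins *Elob* (-0.50, adjusted p = 0.000785) and *Eloc* (-0.20, adjusted p = 0.0381), parts of the VHL ligase, and the beta subunit *Arnt2* (0.34, adjusted p = 0.00267) were at -0.05, 0.05 and 0.12 against the other wildtype kidneys. The coactivator *Ep300* (0.17, adjusted p = 0.031) was at 0.13 against the R-named kidneys (adjusted p = 0.122) and passed against the others (0.23, adjusted p = 0.0442). The *Eloc* call was lost when any 1 of 10 kidneys was left out, replicates 1 to 5 of wildtype and 2, 3, 8, 9 and 12 of PKD (adjusted p up to 0.117). That of *Ep300* was lost in 6 such fits, leaving out replicate 2, 4 or 7 of wildtype, 3 of PKD, or 4 or 11 of PKD + Salsalate (adjusted p up to 0.1). *Arnt*, *Vhl*, *Cul2*, *Rbx1*, *Crebbp*, *Cited2* and *Hif3a* did not pass in PKD against all wildtype kidneys, with log2 fold changes from -0.18 for *Crebbp* to 0.35 for *Hif3a*. *Hif3a*, an alpha subunit whose short forms are known to restrain the others, passed in PKD + Salsalate against wildtype (0.63, adjusted p = 0.0156). With only the wildtype libraries not ending in R it was at 0.67 and did not pass (adjusted p = 0.0886, edgeR). In the comparison of PKD + Salsalate with PKD 0 of the 17 passed, the unadjusted p being under 0.05 for 2 of them and for 10.3% of all genes.

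Glycolytic HIF targets were divided. Of 20 tested, 5 were higher and 7 lower in PKD than in all wildtype kidneys (median -0.05), where 24.1% of all genes were higher and 25.0% lower. The genes called against both sets, 2 higher and 5 lower where 11.4% and 7.79% of all genes were, were *Slc16a3*, the lactate exporter MCT4, and the glucose transporter *Slc2a3* as higher, and *Pdk1*, *Pkm*, *Aldoc*, *Tpi1* and *Pfkl* as lower. *Slc16a3* had a log2 fold change of 1.02 (adjusted p = 7.92e-05, edgeR) and *Slc2a3* of 0.51 (adjusted p = 0.00186). *Pdk1* encodes a kinase that inhibits pyruvate dehydrogenase, and its CPM was 46.2 to 68.8 in wildtype and 27.6 to 42.7 in PKD (-0.78, adjusted p = 2.88e-10). *Pkm*, pyruvate kinase, had 267 to 409 in wildtype and 191 to 248 in PKD (-0.60, adjusted p = 3.67e-09). *Slc2a1* (0.37, adjusted p = 0.0104) and *Pgk1* (0.28, adjusted p = 0.00604) passed against all wildtype kidneys but were at -0.06 and -0.07 against the 3 others.

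*Aldoc*, an aldolase isoform, was the 1 gene of the hypoxia lists that passed between PKD + Salsalate and PKD. It was 1 of 20 glycolytic targets tested, where 0.580% of all genes tested (81) passed. In the other hypoxia lists 0 of 17, 33, 15, 9 and 4 genes tested did. A single call among these lists is not read as a result about them. Its CPM was 19.6 to 25.8 in wildtype, 14.3 to 20.0 in PKD and 17.4 to 24.2 in PKD + Salsalate. *Aldoc* had a log2 fold change of PKD over wildtype of -0.42 (adjusted p = 3.76e-05) and of PKD + Salsalate over PKD of 0.31 (adjusted p = 0.0264, edgeR). PKD + Salsalate did not pass against wildtype (-0.11, adjusted p = 0.256). The call with salsalate was lost when replicate 1 or 9 of PKD, or 5 or 12 of PKD + Salsalate, was left out (adjusted p up to 0.0574).

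Among 33 other HIF targets tested, 16 were higher and 4 lower in PKD than in all wildtype kidneys, with a median log2 fold change of 0.25. Of all genes 24.1% were higher and 25.0% lower, with a median of -0.01. Against both wildtype sets 10 were higher and 1 lower, where 11.4% and 7.79% of all genes were. Secreted and matrix genes were among the largest rises. *Lox*, the collagen cross-linking oxidase, had a CPM of 2.22 to 4.73 in wildtype and 9.68 to 26.2 in PKD (log2 fold change 2.54, adjusted p = 2.22e-11, edgeR). *Stc2*, the hormone stanniocalcin, had 1.93 to 3.52 and 8.67 to 16.1 (2.07, adjusted p = 1.04e-11). *Edn1*, the vasoconstrictor endothelin, had 1.14 to 2.41 and 3.55 to 5.11 (1.38, adjusted p = 2.99e-09). None of these 3 overlapped between the groups, and the share of all genes tested without overlap was not computed. *Edn1* and, among the glycolytic targets, *Slc16a3* lay near the filter in wildtype, so they passed it mainly through the groups where they are high. *Loxl2*, *Cxcr4*, *Cp*, *P4ha1*, *Plod1* and *Vldlr* were also higher against both sets, and *Cxcl12*, a chemokine, was the lower one (-0.51, adjusted p = 0.000265).

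Markers of other cells moved with these rises. All 6 fibroblast markers were higher in PKD than in all 8 wildtype kidneys (summed CPM 771 to 1302 against 314 to 483 in wildtype). So were all 6 macrophage markers (263 to 385 against 128 to 182) and all 6 tubular injury markers (1216 to 2683 against 235 to 504), where 24.1% of all genes were. Against both wildtype sets 5 of the 6 fibroblast markers, all 6 macrophage markers and all 6 injury markers were higher, where 11.4% of all genes were. The fibroblast markers include collagens that *Lox* acts on. The part of these cells in the levels of *Lox*, *Stc2* and *Edn1* was not tested. *Bnip3l* (-0.29), *Higd1a* (-0.32) and *Fam162a* (-0.21), mitochondrial HIF targets, passed as lower against all wildtype kidneys but were at -0.06, -0.11 and -0.09 against the 3 others. For *Fam162a* the call was also lost when replicate 1, 2 or 4 of wildtype, or 1, 2, 5, 7 or 9 of PKD, was left out (adjusted p up to 0.142). *Trf*, transferrin (1.75, adjusted p = 0.0109), was at 0.19 on the log2 scale and no longer passed (adjusted p = 0.324) once replicate 10 of PKD was left out, which carries liver transcripts. *Epo*, the classical HIF-2alpha target, was under the filter, with a median of 0.0317 CPM in wildtype, 0.0222 in PKD and 0.0666 in PKD + Salsalate.

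**Figure D4:**
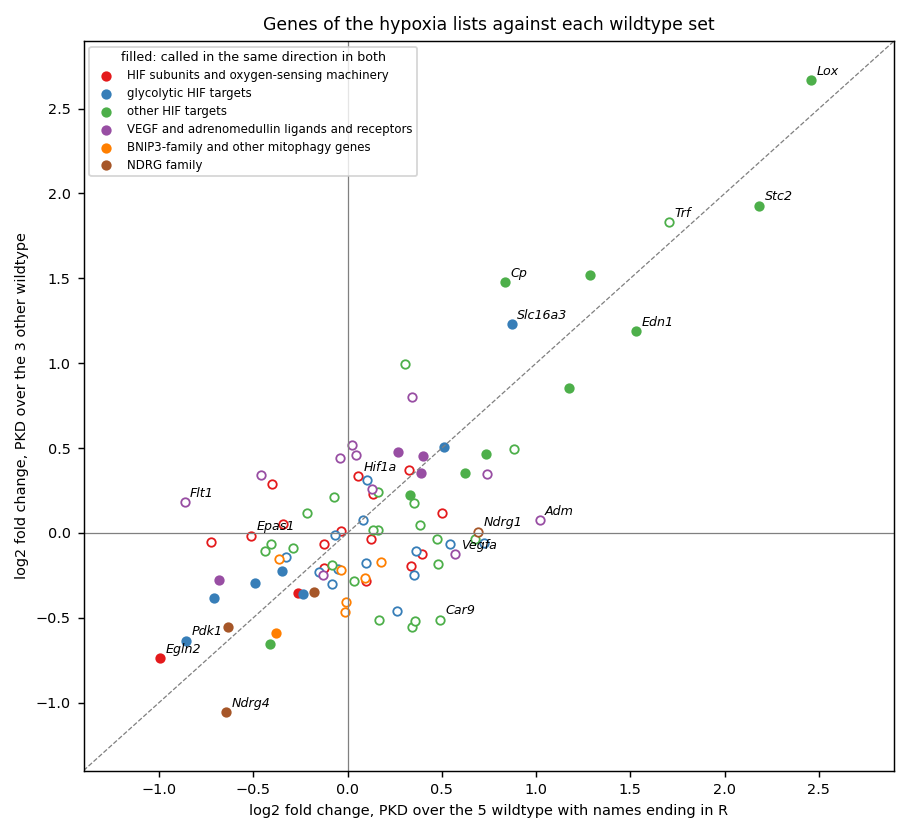
Each point is 1 gene of the hypoxia lists, 2 genes not reported here left out, with its log2 fold change of PKD over the 5 R-named wildtype kidneys (x axis) and over the 3 others (y axis), both against the same PKD kidneys; the dashed line marks equal values and filled points were called in the same direction in both. *Lox*, *Stc2*, *Edn1* and *Slc16a3* lie at the upper right, *Egln2*, *Pdk1* and *Ndrg4* at the lower left, and *Vegfa*, *Adm* and *Ndrg1* near zero on the y axis.

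The families of the targets split in several ways. Of 15 tested VEGF and adrenomedullin ligands and receptors 7 were higher and 2 lower in PKD, against 24.1% and 25.0% of all genes. Against both wildtype sets 3 were higher and 1 lower, against 11.4% and 7.79% of all genes. *Vegfb* (0.38), the lymphatic receptor *Flt4* (0.34) and *Ramp2* (0.42), the accessory protein of the adrenomedullin receptor, were the higher ones, and *Kdr*, the main VEGF receptor of endothelium, was lower (-0.54, adjusted p = 3.57e-06, edgeR). *Flt1*, the decoy-like VEGF receptor, was lower against all wildtype kidneys (-0.55, adjusted p = 0.00134), with -0.86 against the R-named kidneys and 0.18 against the others. *Kdr* and *Flt1* were higher in the R-named than in the other wildtype kidneys (0.40 and 1.05). So were 5 of 8 endothelial markers, a list that includes *Kdr*, and their part in these values was not tested. *Vegfc* (0.56, adjusted p = 0.000475) and *Ramp1* (0.52, adjusted p = 0.0031) passed against all wildtype kidneys and against 1 set each.

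Of 9 mitophagy genes 5 were lower in PKD than in all wildtype kidneys and 0 higher, against 25.0% and 24.1% of all genes. Against both wildtype sets 2 were lower and 0 higher, where 7.79% and 11.4% of all genes were. *Pink1*, the kinase that marks damaged mitochondria (-0.46, adjusted p = 8.26e-08), was lower against both wildtype sets. In PKD + Salsalate 3 of the 9 were lower against both sets, where 5.99% of all genes were. Among them were *Bnip3* and *Pink1* (-0.37 against all wildtype kidneys). In the NDRG family 3 of 4 genes were lower in PKD against both sets, where 7.79% of all genes were. With values against all wildtype kidneys, these were *Ndrg2* (-0.60, adjusted p = 3.85e-08), *Ndrg3* (-0.24, adjusted p = 3.63e-05) and *Ndrg4* (-0.82, adjusted p = 0.000921). *Ndrg1* was higher only against the R-named kidneys and all 8 together. Of 11 immediate early genes tested, transcripts that respond to stress within minutes, 8 were higher and 1 lower in PKD against both sets (11.4% and 7.79% of all genes), *Fos* at 3.29 and *Egr1* at 2.41 on the log2 scale against all wildtype kidneys among the higher. Between PKD + Salsalate and PKD 0 of the 11 passed, with an unadjusted p under 0.05 for 8, against 10.3% of all genes, and a median log2 fold change of -0.30, against -0.01 over all genes.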

How the data were processed

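Total RNA of 32 kidneys was made into directional libraries. Per the submitters' processing notes and the study's methods, the authors trimmed reads with cutadapt 2.10, mapped them with STAR 2.7.5a to GRCm39, used HTSeq 0.12.4 for strand-specific counting, and deposited raw counts per gene, not normalized. Between 73.6% and 83.1% of the counted alignments of a kidney lay on genes, and the summary lines were left out.

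With edgeR 4.0.16 (R 4.3.3), the filter of the study's methods (log2 CPM above 1 in 25% of the kidneys or more) kept 13961 genes. TMM factors, a quasi-likelihood fit of the 3 groups, 2-sided tests and Benjamini-Hochberg adjustment over all genes tested followed, with a threshold of 0.05. A fit of 4 groups gave the wildtype sets. RPKM used exon lengths of GENCODE vM39, in which 52610 of 53700 identifiers were found. The scripts were tested on simulated data. Replicates are numbered kidneys, and the labels do not say more of their independence.

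The members and gene lists were chosen with earlier results of these data known. Named are the members, the machinery list, up to 4 called rises and 4 falls of each other list per comparison, list genes called with salsalate and the 3 genes nearest to each member. Genes called against both wildtype sets, *Car9* and *Car12* were added after their values were seen. The list counts include 2 genes that are not reported here by name. Alternatives were upper-quartile scaling or the size factors of DESeq2 1.42.0, its Wald test in place of edgeR, limma-voom (limma 3.58.1), no filter, filterByExpr, only the groups compared, a replicate block, either wildtype set alone and each kidney left out.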

Additional observations from a re-analysis of the deposited data

How the results depend on the processing

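The count of members called was 3 to 5 under every alternative and 3 or 4 with any 1 kidney left out for PKD against wildtype (4 in the report), and 0 under every alternative and with any 1 kidney left out for PKD + Salsalate against PKD. For PKD + Salsalate against wildtype (5) it was 3 with a replicate block and 2 with only the wildtype libraries not ending in R, and ranged from 3 to 6 with 1 kidney left out. Without the filter, or with only the groups compared, *Vegfa* no longer passed in PKD (adjusted p = 0.0658 and 0.107). The members behind the count for PKD against wildtype changed with the wildtype set. In an edgeR fit with only the wildtype libraries not ending in R, 3 were called, 1 higher and 2 lower. They were *Hif1a* (0.32, adjusted p = 0.017), *Egln1* (-0.29, adjusted p = 0.0118) and *Bnip3* (-0.23, adjusted p = 0.0482). None of the 4 members called in the report passed in this fit (adjusted p from 0.245 for *Vegfa* to 0.993 for *Ndrg1*). *Bnip3* did not pass in the fit of 4 groups. Over all genes, PKD + Salsalate against PKD gave 81 calls in the report, 199 with the Wald test of DESeq2, 146 with limma-voom, 48 with a replicate block, 195 with only the groups compared, 145 with only the wildtype libraries ending in R, 257 with only the others, and 39 to 226 with 1 kidney left out. The cause of these shifts was not tested.

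No pairing of kidneys by replicate number was shown. The check was not run on differently numbered kidneys, so it cannot exclude a pairing. Same-numbered kidneys correlated above 0.1 in 3 of 8 pairs for PKD and wildtype, 2 of 12 for both PKD groups and 3 of 8 for PKD + Salsalate and wildtype. With the replicate block *Egln3* (adjusted p = 0.0515) and *Ndrg1* (adjusted p = 0.0532) no longer passed in PKD + Salsalate against wildtype, nor *Aldoc* against PKD (adjusted p = 0.0534).

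Signs turned mostly with the choice of wildtype set, also for genes that passed against all wildtype kidneys, such as *Vegfa*, *Ndrg1*, *Eloc*, *Pgk1*, *Slc2a1* and *Flt1* in PKD. With only the wildtype libraries not ending in R, log2 fold changes of PKD were -0.21 for *Egln3*, -0.13 for *Vegfa*, -0.0023 for *Ndrg1*, -0.13 for *Arnt*, 0.28 for *Crebbp*, 0.0025 for *Cul2*, 0.041 for *Eloc*, -0.043 for *Vhl*, -0.076 for *Pgk1*, -0.069 for *Slc2a1* and 0.17 for *Flt1*. Those of PKD + Salsalate over wildtype were -0.012 for *Egln3*, -0.22 for *Vegfa*, -0.033 for *Ndrg1*, -0.15 for *Arnt*, 0.26 for *Crebbp*, 0.018 for *Cul2*, 0.12 for *Elob*, 0.070 for *Eloc*, -0.064 for *Pgk1*, -0.052 for *Slc2a1* and 0.10 for *Flt1*, and *Egln1* over PKD was 0.000568. With only those ending in R, *Egln1* was 0.097 in PKD and 0.092 in PKD + Salsalate over wildtype, where *Hif1a* was -0.049 and *Vhl* 0.020. Upper-quartile factors gave 0.0080 for *Cul2* in PKD, 0.012 for *Cul2* in PKD + Salsalate over wildtype and -0.0054 for *Rbx1* over PKD. Over PKD, limma-voom gave -0.0013 for *Rbx1* and DESeq2 7.29e-05 for *Egln1*. The fit without a filter gave 0.012 for *Cul2* in PKD + Salsalate over wildtype.

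With 1 kidney left out, *Cul2* ranged from -0.050 to 0.016 in PKD and from -0.033 to 0.025 in PKD + Salsalate over wildtype. Over PKD, *Epas1* ranged from -0.030 to 0.0089, *Egln1* from -0.036 to 0.015, *Ndrg1* from -0.079 to 0.019, *Arnt* from -0.058 to 0.012, *Arnt2* from -0.044 to 0.032, *Crebbp* from -0.069 to 0.023, *Cul2* from -0.014 to 0.042, *Eloc* from -0.0091 to 0.068, *Hif1an* from -0.025 to 0.034 and *Rbx1* from -0.030 to 0.028. Low counts limit *Ankrd37* and *Epo*, and the spread between kidneys limits *Adm*.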
